A study of Mus musculus with 4 samples.

Results

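Ionotropic AMPA receptors carry most fast excitatory transmission in the brain. Their genes were followed here in RNA precipitated with tagged ribosomes and in total RNA of the mouse amygdala. The gene set held 10 members, taken by symbol out of the 23991 symbols that each library listed: the pore-forming subunits Gria1, Gria2, Gria3 and Gria4, the transmembrane AMPA receptor regulatory proteins (TARPs) Cacng2, Cacng3, Cacng4, Cacng5 and Cacng8, and the cornichon Cnih2. All 10 had 1 entry with an accepted status in every library, and all 10 passed the filter on low values.

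All libraries came from the amygdala of mice carrying an Npy Cre driver and a Cre-dependent tagged ribosome allele (NpyCre/+;TRAPlox/lox), so the input libraries share the genotype of the immunoprecipitated ones. Translating ribosome affinity purification (TRAP) pulls down tagged ribosomes with the RNA they carry, here from cells in which Cre under the control of the neuropeptide Y gene had acted. There were 2 libraries of immunoprecipitated RNA (IP) and 2 of total input RNA, each from 3 pooled mice, and the labels give no age, sex or treatment. A cell that used the Npy gene only earlier in life would still carry the tag, and no library of Cre-negative tissue was analysed here.

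AMPA receptors are tetramers of the Gria products, and the subunits chosen for the tetramer set its conductance, kinetics and permeability to calcium. Receptors that contain the edited product of Gria2 pass little calcium, whereas receptors without it pass calcium and are a known feature of many GABAergic interneurons. Many TARPs, and the cornichon Cnih2, bind the assembled receptor, bring it to the surface and slow its closing.

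The property that sets Gria2 apart lies in a single glutamine codon of the pore loop, the Q/R site, which adenosine deamination turns into an arginine codon in Gria2 RNA. The coding stretches around that codon are given because the comparison turns on Gria2 against its paralogs. They were read 5′ to 3′ on the coding strand from the mouse reference genome GRCm38 (mm10), with the codon of the Q/R site in capitals.
Gria1: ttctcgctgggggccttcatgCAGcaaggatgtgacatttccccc
Gria2: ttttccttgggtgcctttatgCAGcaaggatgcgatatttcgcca
Gria3: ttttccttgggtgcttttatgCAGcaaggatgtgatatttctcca
Gria4: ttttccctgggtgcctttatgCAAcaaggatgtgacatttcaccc
These stretches of 45 bases lie in coding exons at chr11:57243073-57243117 on the plus strand, chr3:80706890-80706934 on the minus strand, chrX:41610244-41610288 on the plus strand and chr9:4464116-4464160 on the minus strand, in the same order. The Gria2 stretch shares 36 of its 45 bases with Gria1, 42 with Gria3 and 39 with Gria4, and the capitals spell glutamine in each. The deposited values are gene levels, so the edited share of Gria2 RNA was not analysed here.

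Levels are FPKM, read fragments scaled to transcript length and to the mapped reads of the library, which can be set side by side between genes. The sum of FPKM over all entries was 334759 and 335119 in the input libraries and 423985 and 419349 in the IP libraries, and the files give no read totals. The upper confidence limit listed beside each FPKM lay 3.45% to 20.7% above the value for the 10 members, widest for Cacng4. Npy itself went from 105.4 FPKM (replicate 1) and 99.2 FPKM (replicate 2) in input to 1240 and 1167 FPKM in IP. The marker lists of GABAergic (3 of 3 genes), Npy and Sst (4 of 4) and parvalbumin neurons (3 of 3) were higher in IP, and 3 of the 4 Npy and Sst genes passed once each library was rescaled to the same summed FPKM. Glutamatergic markers were lower for 4 of 6 genes, with a summed level of 716 to 740 FPKM in input and 315 to 414 in IP. All 18 markers of astrocytes, oligodendrocyte precursors, oligodendrocytes and microglia were lower, and no marker of these lists was at 0 in any library. By the same test, described below, 37.0% of all genes tested were higher and 33.9% lower, and 17.9% and 53.8% after rescaling. Each IP had a corresponding input, so these marker differences do not measure cell numbers in the tissue. Which cells carried the tag and how much untagged RNA came along were not tested.

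The comparison of IP with input shows which of these transcripts were over- or under-represented in the precipitated RNA relative to total RNA. Gria1, Gria4 and Cacng2 rose 1.64-fold, 2.05-fold and 1.83-fold in mean FPKM, whereas Gria2, Gria3 and Cacng4 were 2.26-fold, 1.45-fold and 1.69-fold lower in IP. Cnih2 was 1.17-fold higher, and Cacng3, Cacng5 and Cacng8 did not pass the test. The test was limma on log2(FPKM + 1) with an adjusted p of 0.05 as the threshold, fitted over all 12419 genes that reached an FPKM of 1 in 2 or more libraries. By it 4 members were higher and 3 lower, 7 of 10, where 70.9% of all tested genes passed, 37.0% of them higher and 33.9% lower (shares of all genes tested). The count of called members thus lies at the background, and the members differ from one another in direction and size. Their median log2 change was 0.19, beside 0.03 for all genes tested.

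**Figure D1:**
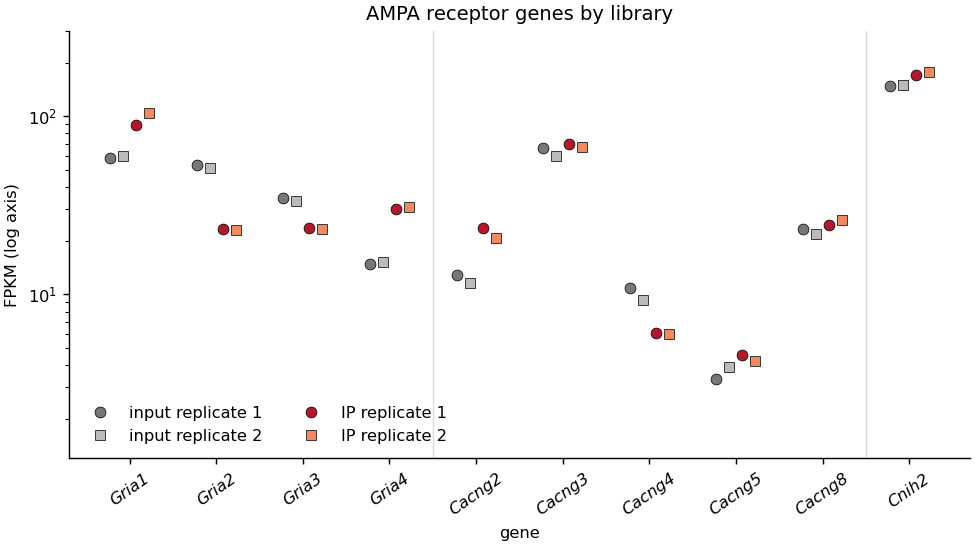
FPKM of the 10 genes (log axis) in each of the 4 libraries, grey for input and red or orange for IP, with circles for replicate 1 and squares for replicate 2; vertical lines part the subunits, the TARPs and Cnih2. Both IP points stand above both input points for Gria1, Gria4 and Cacng2 and below them for Gria2, Gria3 and Cacng4, while the points of Cacng3, Cacng5 and Cacng8 lie close together.

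Gria1 encodes the GluA1 subunit, whose delivery to synapses accompanies long-term potentiation. It lies on chromosome 11 from 57011618 to 57330244 (mm10). In input its level was 58.3 FPKM in replicate 1 and 59.7 FPKM in replicate 2, and the IP levels in the same order were 88.8 and 104.8 FPKM. All pairs of values that follow have this order of replicates. Both IP libraries lay above both input libraries, and the IP libraries stood further apart from each other than the input libraries did. The log2 change was 0.70 (SE 0.08; limma, adjusted p = 0.000479), with 0.60 in the pool of replicate 1 and 0.80 in that of replicate 2.

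Gria2 encodes GluA2, the subunit that makes the channel nearly impermeable to calcium once its RNA is edited. It lies on chromosome 3 from 80684936 to 80802791 (mm10). It was at 53.2 and 51.4 FPKM in the input pools and at 23.4 and 22.8 in IP. The groups were far apart beside the spread within each, and with the values as deposited this was the largest change in size among the members, -1.14 on the log2 scale (SE 0.05; limma, adjusted p = 2.55e-05). The change was -1.15 in the pool of replicate 1 and -1.13 in that of replicate 2. Among all genes tested 5.67% had a lower log2 change.

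Gria3 encodes GluA3, which forms receptors with GluA2 in many forebrain neurons, and lies on the X chromosome from 41401301 to 41678601 (mm10). It was at 34.7 and 33.3 FPKM in the input pools and at 23.7 and 23.3 in IP, without overlap, a log2 change of -0.51 (SE 0.05; limma, adjusted p = 0.000311). Gria4 encodes GluA4, a subunit with fast kinetics that is abundant in parvalbumin interneurons and in the cerebellum, and lies on chromosome 9 from 4417893 to 4796234 (mm10). Its levels were 14.7 and 15.2 FPKM in the input pools and 30.3 and 31.0 in IP. Replicates of each group nearly coincided, and the log2 change of 0.99 was the largest rise among the members (SE 0.06; limma, adjusted p = 4.01e-05). Pvalb, the gene of parvalbumin, was at 32.3 and 29.8 FPKM in the input pools and 375 and 297 in IP. Its log2 change was 3.39, and the other parvalbumin markers Kcnc1 and Syt2 changed by 1.25 and 1.27. Of the Npy and Sst list, Sst, Cort and Npy changed by 3.75, 3.65 and 3.54 and Nos1 by 0.57. The part of any of these cells in the Gria4 difference was not tested.

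Subunit protein was not measured here, so the make-up of the receptors cannot be read from these values. The make-up of the subunit RNA is given by the share of each gene in the summed FPKM of Gria1 to Gria4. That sum was 160.9 and 159.5 FPKM in the input pools and 166.2 and 181.9 in IP. Gria2 made up 33.1% and 32.2% of it in input and 14.1% and 12.6% in IP, a mean of 32.6% ± 0.61 against 13.3% ± 1.07 (SD, n = 2). Gria1 went from 36.2% and 37.4% in input to 53.4% and 57.6% in IP, and Gria4 from 9.15% and 9.54% to 18.2% and 17.0%. Gria3 accounted for 21.5% and 20.9% of the sum in input and for 14.3% and 12.8% in IP. None of these 4 shares overlapped between the groups. The exact two-sided permutation test gives p = 0.3333 for each of them, the smallest value for free splits of 2 libraries against 2. These splits leave out the pairing of IP and input by pool.

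Ratios within a library do not depend on how libraries are scaled to each other. FPKM already takes in transcript length, but neither ratios nor shares were corrected for the trend of the IP change with length, described below. Among the longest GENCODE transcripts of Gria1 to Gria4 that of Gria2 is the longest (10371 bases). The ratio of Gria1 to Gria2 was 1.10 and 1.16 in input and 3.80 and 4.59 in IP. The ratio of Gria4 to Gria2 was 0.28 and 0.30 in input and 1.30 and 1.36 in IP, so that Gria4 passed from below Gria2 to above it in both pools. Gria3 was at 0.65 of Gria2 in both input libraries and at 1.01 and 1.02 of it in IP. Gria1 stayed above Gria4 throughout, at a ratio of 3.96 and 3.92 in input and 2.93 and 3.38 in IP.

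**Figure D2:**
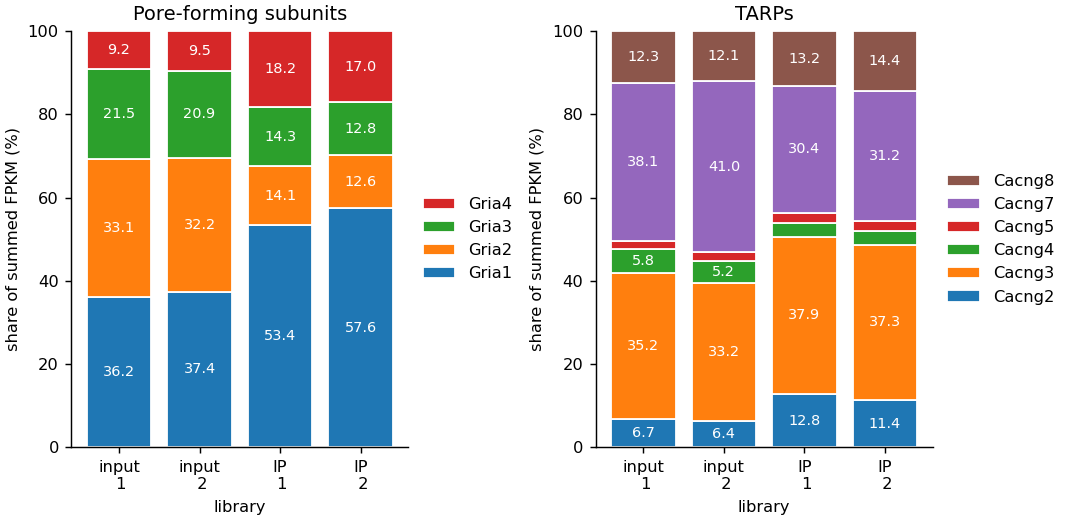
Share in percent of each gene in the summed FPKM of the pore-forming subunits (left) and of the TARPs (right, with Cacng7), one stacked bar per library; shares above 5% are printed. Gria2 takes 33.1% and 32.2% of the subunit sum in input and 14.1% and 12.6% in IP, and Cacng2 takes 6.75% and 6.37% of the TARP sum in input and 12.8% and 11.4% in IP.

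Cacng2 encodes stargazin, the founding TARP, whose loss in the stargazer mouse removes AMPA receptors from the surface of cerebellar granule cells. It lies on chromosome 15 from 77993623 to 78119280 (mm10). Cacng2 was at 12.8 and 11.5 FPKM in the input pools and at 23.7 and 20.7 in IP. Both IP libraries stood clear of both input libraries, with a log2 change of 0.82 (SE 0.09; limma, adjusted p = 0.000327). Exons of an antisense gene overlap Cacng2 in the GENCODE annotation, and no source says whether the counting used strand, so reads of that gene cannot be told apart from those of Cacng2.

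Cacng3 encodes a type I TARP of cortex and hippocampus and was the most abundant TARP among the members, on chromosome 7 from 122671744 to 122769394 (mm10). It was at 66.7 and 59.9 FPKM in the input pools and at 70.1 and 67.3 in IP. The highest input value almost reached the lower IP value, and the log2 change of 0.12 (SE 0.07) did not pass (limma, adjusted p = 0.147). Cacng8, the gene of a type I TARP abundant in hippocampus, lies on chromosome 7 from 3394117 to 3415605 (mm10). It was at 23.3 and 21.8 FPKM in the input pools and at 24.5 and 26.1 in IP, a log2 change of 0.16 (SE 0.06; limma, adjusted p = 0.0651). A p that misses the threshold does not show that these levels were equal.

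Cacng4, a TARP gene also used by glial cells, lies on chromosome 11 from 107734780 to 107794464 (mm10). It was at 10.9 and 9.33 FPKM in the input pools and at 6.06 and 5.95 in IP. Both IP values lay below both input values, with a log2 change of -0.66 (SE 0.09; limma, adjusted p = 0.000847). Markers of other cells moved the same way. The 5 astrocyte markers together were at 151.3 to 166.8 FPKM in input and 25.8 to 30.8 in IP, and the 5 oligodendrocyte precursor markers at 61.7 to 65.8 in input and 9.53 to 12.4 in IP. Their part in the Cacng4 difference was not tested. Cacng5, a type II TARP gene next to Cacng4 on chromosome 11 from 107874605 to 107915055 (mm10), was the lowest member. It was at 3.35 and 3.89 FPKM in the input pools and at 4.56 and 4.23 in IP, a log2 change of 0.23 (SE 0.09) that did not pass with the values as deposited (limma, adjusted p = 0.0698). It passed with quantile normalization (0.50, adjusted p = 0.00493), with median-of-ratios size factors (0.27, adjusted p = 0.0379) and after correction for length (0.25, adjusted p = 0.0487), and was -0.05 once libraries were rescaled to one sum (adjusted p = 0.681).

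Cacng7, a type II TARP gene outside the member list, took the largest share of the TARP sum in input. It was at 72.2 and 74.1 FPKM in the input pools and at 56.2 and 56.4 in IP, a log2 change of -0.37 (SE 0.05; limma, adjusted p = 0.000662). With it included, the TARP sum was 189.2 and 180.6 FPKM in the input pools and 185.1 and 180.7 in IP, so the groups overlapped. The type I genes Cacng2, Cacng3, Cacng4 and Cacng8 together made up 60.1% and 56.8% of that sum in input and 67.2% and 66.4% in IP (exact permutation, two-sided, p = 0.3333, the smallest possible). The ratio of Cacng2 to Cacng3 was 0.19 in both input libraries and 0.34 and 0.31 in IP, and the ratio of Cacng4 to Cacng8 was 0.47 and 0.43 in input and 0.25 and 0.23 in IP. The gene names Cacng1 and Cacng6 belong to relatives that are not AMPA receptor partners, and both stayed below 1 FPKM in every library.

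Cnih2 encodes a cornichon that escorts AMPA receptors out of the endoplasmic reticulum and stays with them at the synapse. It lies on chromosome 19 from 5092871 to 5098418 (mm10) and was the most abundant member, at 148 and 150 FPKM in the input pools and at 171 and 177 in IP. The groups did not overlap, and the log2 change was 0.22 (SE 0.05; limma, adjusted p = 0.00554). However, the change turned negative under 3 of the 16 alternatives: rescaling, quantile normalization and correction for length, with values given below. Without overlap of the groups, only the scalings and that correction could turn a direction. Exons of Yif1a on the opposite strand overlap Cnih2. Its paralog Cnih3 was at 35.1 and 34.1 FPKM in the input pools and at 30.1 and 23.7 in IP, a log2 change of -0.36 (limma, adjusted p = 0.0228) that no longer passed when input replicate 1 (-0.34, adjusted p = 0.149) or input replicate 2 (-0.38, adjusted p = 0.119) was left out or without the filter on low values (-0.36, adjusted p = 0.065). The change was -0.53 without IP replicate 1 (adjusted p = 0.00133) and -0.20 without IP replicate 2 (adjusted p = 0.0441). The ratio of Cnih2 to Cnih3 was 4.22 and 4.39 in input and 5.68 and 7.46 in IP.

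In input the order of mean levels was Cnih2, Cacng3, Gria1, Gria2, Gria3, Cacng8, Gria4, Cacng2, Cacng4 and Cacng5, and no neighbours in this order overlapped. In IP it was Cnih2, Gria1, Cacng3, Gria4, Cacng8, Gria3, Gria2, Cacng2, Cacng4 and Cacng5. Gria3 overlapped with Gria2 there, and Gria2 with Cacng2, so these 3 genes were not ordered beyond their spread. Both values of IP lay outside both values of input for all 10 members, as they did for 86.4% of all genes tested. The listed confidence limits of the libraries lay apart between the groups for 7 members, the same 7 that passed the test, where 57.2% of all genes tested had limits apart.

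The scaling of libraries against each other is not recorded, and it moved the smaller changes. When every library was brought to a sum of 1000000 (rescaling), the median log2 change of all genes went from 0.03 to -0.29. Relative to that shift the pattern among the members was the same, with Gria1, Gria4 and Cacng2 higher at 0.37, 0.68 and 0.52 and Gria2, Gria3 and Cacng4 lower at -1.5, -0.86 and -1.04. Those 6 genes kept their direction and their call under all 16 alternatives. Only the scalings and the correction for length could turn a direction, since IP and input did not overlap for these genes. Rescaling put 3 members higher and 4 lower, where 17.9% and 53.8% of all genes were higher and lower. Quantile normalization put 4 higher and 5 lower, where 35.3% and 30.2% of all genes were, and median-of-ratios size factors put 7 higher and 3 lower, where 40.4% and 31.3% were. Cnih2 turned to -0.12 after rescaling (limma, adjusted p = 0.0593) and to -0.24 with quantile normalization (adjusted p = 0.00541). Cacng3 turned to -0.22 (adjusted p = 0.0219) and -0.23 (adjusted p = 0.0187) under the same scalings, and passed as higher with median-of-ratios size factors (0.18, adjusted p = 0.0421). Cacng8 was at -0.17 after rescaling (adjusted p = 0.0554) and at -0.03 with quantile normalization (adjusted p = 0.707), and passed as higher with median-of-ratios size factors (0.21, adjusted p = 0.0257).

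Longer transcripts tended to be lower in IP across genes, with a Spearman correlation of -0.37 between log2 change and log2 transcript length over 12346 genes, which share libraries and are no replicates. The longest GENCODE transcript of Gria2 has 10371 bases and those of Gria1, Gria3, Gria4 and Cacng2 have 5546, 5192, 5441 and 5510, where the median of all genes tested was 3188. After correction for length Gria2 was at -0.67 (limma, adjusted p = 0.000137), Gria3 at -0.37, Gria1 at 0.86 and Gria4 at 1.14. Cnih2, with 1343 bases, turned to -0.13 (adjusted p = 0.0451). The correction used these GENCODE lengths, which can differ from those of the gene models behind the FPKM, so the corrected sizes are approximate. The gene model of Gria2 in the files ends 3486 bases short of the RefSeq 3′ end. Those of Cacng4, Cacng2 and Cacng8 end 2423, 1704 and 661 bases short, so reads in all these ends are not part of the values. The models of Gria1, Gria3 and Gria4 reach the RefSeq 3′ end.

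**Figure D3:**
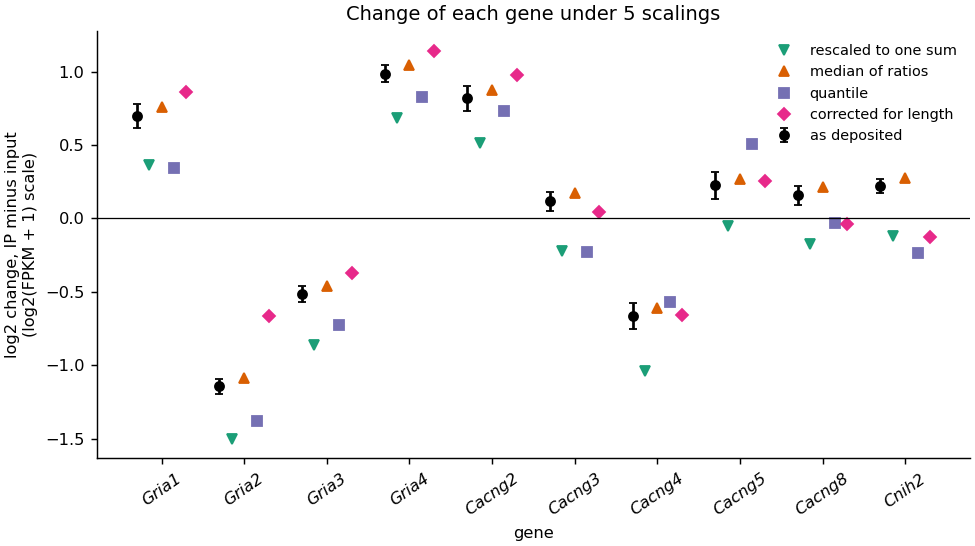
Log2 change (IP minus input, log2(FPKM + 1) scale) of the 10 genes with the values as deposited (black, bars are the standard error of limma) and under 4 alternatives: rescaling to one sum, median-of-ratios size factors, quantile normalization and correction for transcript length. Gria1, Gria4 and Cacng2 stay above 0 and Gria2, Gria3 and Cacng4 below 0 in each, while Cacng3, Cacng8 and Cnih2 lie on both sides of it and Cacng5 falls just below it after rescaling.

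Of 14 tested genes among 16 other parts of the AMPA receptor complex, 9 fell, 2 rose and 3 did not pass, with a median log2 change of -0.35 beside 0.03 for all genes tested. That is 64.3% lower and 14.3% higher, beside 33.9% and 37.0% of all genes tested. After rescaling 11 were lower (78.6%) and 2 higher (14.3%), beside 53.8% and 17.9% of all genes. Nptx1, the gene of a secreted pentraxin that clusters AMPA receptors, had the lowest change at -1.17, from 38.3 and 40.6 FPKM in input to 19.6 and 14.6 in IP (limma, adjusted p = 0.000358). Shisa7 and Gsg1l, which encode proteins that associate with the receptor, changed by -1.10 and -0.65. Olfm3 and Olfm2, genes of secreted noelins, rose by 0.93 and 0.91, while their more abundant relative Olfm1 was lower by -0.49. Nptxr was listed at 0 in all 4 libraries, but the entry Npcd, whose span covers that of Nptxr, was at 192 and 221 FPKM in input and at 94.6 and 86.1 in IP. How reads were assigned between these entries is not recorded, so the 0 gives no level of Nptxr. Shisa8 was not found under its symbol.

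Genes of receptor biogenesis and export were split, with 5 of 8 higher (62.5%) and 3 lower (37.5%), beside 37.0% and 33.9% of all genes tested. Sacm1l, a lipid phosphatase gene, had the highest change at 0.65, and Frrs1l, which encodes an early assembly factor of the receptor, the lowest at -0.48, from 27.0 and 28.2 FPKM in input to 20.0 and 19.1 in IP. After rescaling 2 genes of this list were higher (25.0%) and 3 lower (37.5%), beside 17.9% and 53.8% of all genes.

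Among 18 anchoring and trafficking genes 11 rose (61.1%), 6 fell (33.3%) and 1 did not pass, beside 37.0% and 33.9% of all genes tested. After rescaling 5 were higher (27.8%) and 7 lower (38.9%), beside 17.9% and 53.8% of all genes. Grip2 and Grip1, scaffolds that bind the tail of GluA2 and GluA3, were both higher. Grip2 went from 4.52 and 5.10 FPKM in input to 15.2 and 14.0 in IP, a log2 change of 1.43 (SE 0.08; limma, adjusted p = 4.18e-05) and the largest in this list. Grip1 changed by 0.78 (limma, adjusted p = 0.000281), so these partners were higher in IP while Gria2 and Gria3 were lower. Nsg1 and Nsg2, genes of endosomal proteins that carry AMPA receptors, rose by 0.84 and 0.70. Dlg1, the gene of the scaffold SAP97 that binds GluA1, was lower by -0.77 while Gria1 was higher. Arc, which drives AMPA receptor endocytosis, had the lowest change at -0.81, a call that ended when input replicate 1 was left out (-0.68; limma, adjusted p = 0.0862).

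Of 3 genes of the RNA editing family 2 rose and 0 fell, where 37.0% of all genes tested rose, and after rescaling 1 was higher, where 17.9% of all genes were. Adarb1, the deaminase of the Q/R site, was at 32.3 and 34.1 FPKM in the input pools and at 47.8 and 44.1 in IP, a log2 change of 0.46 (SE 0.06; limma, adjusted p = 0.00089) that did not pass after rescaling (0.13, adjusted p = 0.107). Adar rose by 0.54, and Adarb2, which has no known deaminase activity, did not pass (0.10, adjusted p = 0.398). Of the 9 kinases and phosphatases that act on the subunits 4 rose (44.4%) and 5 fell (55.6%), beside 37.0% and 33.9% of all genes tested. After rescaling 1 was higher (11.1%) and 5 lower (55.6%), beside 17.9% and 53.8% of all genes. Camk2a, whose kinase phosphorylates GluA1 and which is also a glutamatergic marker of the lists used here, had the lowest change at -1.03, from 362 and 377 FPKM in input to 192 and 171 in IP. Prkaca, the catalytic subunit gene of protein kinase A, had the highest at 0.56, a call lost under quantile normalization (0.10, adjusted p = 0.107). Over the 52 tested genes of the related lists 24 were higher and 23 lower, with a median of 0.06, so 90.4% passed beside 70.9% of all genes tested. After rescaling 11 of the 52 were higher and 26 lower, beside 17.9% and 53.8% of all genes.

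**Figure D4:**
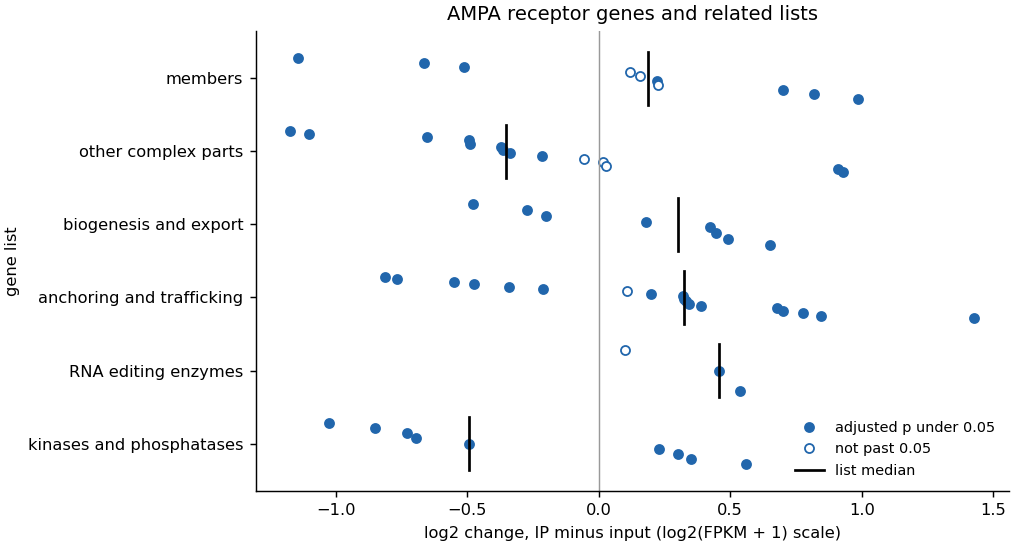
Log2 change (IP minus input, log2(FPKM + 1) scale) of every tested gene of the members and of 5 related lists, filled where the adjusted p was under 0.05 and open otherwise, with a black line at each list's median. The members span -1.14 to 0.99 on both sides of their median of 0.19, and the list of other complex parts has its median at -0.35.

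For each subunit the 2 tested genes nearest in level and change were taken by Euclidean distance of log2(FPKM + 1) over the 4 libraries, leaving out predicted genes. Gria1 lay nearest to Cct3 (distance 0.13) and Erh (0.15), and Gria2 to Icam5 (0.15) and Sptbn1 (0.17). Icam5, an adhesion molecule gene of forebrain neurons, was at 52.0 and 52.4 FPKM in the input pools and at 25.4 and 24.3 in IP. Gria3 lay nearest to Psat1 (0.08) and Klf16 (0.08), and Gria4 to Ttc9 (0.07) and Cgref1 (0.11). With 4 libraries in 2 groups such likeness reflects a similar level and a similar difference between IP and input only.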

How the data were processed

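The deposited values are gene-level FPKM made by the authors with Cufflinks for each library, each value with its limits of confidence, per the file headers. Reads of 100 bases were aligned with TopHat at default settings to mm10 with the UCSC iGenomes annotation, per the series' design text, and tool versions are not given in the sources used here. Cuffdiff results were not used. Groups and replicate numbers follow the sample titles. The source description of IP replicate 2 says replicate 1. The design text gives each IP a corresponding input, so the numbers pair the libraries by pool (correlation of deviations 0.16 across genes).

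Entries with a failed status (8) or a small RNA name (1275) were left out, and the entry with the highest mean was kept per symbol. Genes with FPKM of at least 1 in 2 libraries were tested as log2(FPKM + 1) in limma 3.58.1 under R 4.3.3 (lmFit, then eBayes with its trend option), two-sided, Benjamini-Hochberg adjusted, without a block. Folds in words are ratios of mean FPKM. A count test was not run, since FPKM are no counts. P-values rest on 2 libraries a group, paired by pool. Simulated data with changes in 200 of 12419 genes gave back 47% of those of 0.5 and 86% of those of 1 on the log2 scale, with 7 false calls. The changed genes were drawn from those with higher input levels. A far larger share of genes passed in the real data, so these values do not give the power of the real test. Alternatives covered pseudocount, filter, scaling, replicate block, eBayes options, summed entries, a loess correction for length and each library left out. The text names all members, Npy, the 2 tested genes nearest to each Gria gene, and of the related lists at least the highest and lowest change, with others chosen after their values were seen. Epb41l1 was matched through a RefSeq synonym. The members and lists were chosen with earlier results of these data known. Replicates were not duplicates, with 0 identical values at FPKM of 5 or more.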

Additional observations from a re-analysis of the deposited data

How the results depend on the processing

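Gria1, Gria2, Gria3, Gria4, Cacng2 and Cacng4 kept their direction and their side of the threshold under all 16 alternatives, the replicate block among them. Only the scalings and the correction for length could turn a member's direction, since IP and input did not overlap for any member. With 1 library left out in turn, where the lone library of a group was assumed to vary like the others, 7 members passed each time, 4 higher and 3 lower. In these fits the change of Gria2 ran from -1.17 to -1.12 and that of Gria1 from 0.58 to 0.82. Cnih2 turned to -0.12 after rescaling, to -0.24 with quantile normalization and to -0.13 after correction for length. Cacng3 turned to -0.22 after rescaling and to -0.23 with quantile normalization. Cacng8, not past the threshold, was at -0.17, -0.03 and -0.04 under these 3 alternatives in the order given for Cnih2, and Cacng5 at -0.05 after rescaling. Cacng3, Cacng5 and Cacng8 passed as higher with median-of-ratios size factors, and Cacng5 also with quantile normalization (0.50) and after correction for length (0.25). With median-of-ratios size factors 7 members were higher, and with quantile normalization 5 were lower. Of the related genes 11 were higher after rescaling and 14 with quantile normalization, against 24. Over all genes rescaling gave 2228 higher and 6687 lower, and a filter at FPKM of 5 left 2437 lower, against 4597 and 4207; that filter tested fewer genes. With the replicate number as a block 9117 genes passed, against 8804, and no call of a member changed. The IP minus input difference of the Gria2 share was -19.3 percentage points, and that of the type I TARP share 8.36. Both moved by less than the replicate SD under their 7 alternatives. Leaving out 1 of the 2 libraries of a group cannot move them by more than that, so those fits are no check. No alternative corrected the shares for the trend of the IP change with transcript length. The precision is limited by 2 libraries a group, paired by pool. Upper confidence limits of Cacng4 and Cacng5 lay 10.6% or more above their values, so small changes of these low genes were least resolved. Other causes of these shifts were not tested.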
